A study of Mus musculus with 3 samples.

Results

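The 49 genes described here encode ATP-binding cassette (ABC) proteins, and were taken from arrays of 3T3-L1 cells, an established mouse line whose fibroblast-like preadipocytes become fat-storing adipocytes after induction. They were picked by gene symbol, under a rule set with earlier results of these data known. A probe was kept if its RefSeq accession matched a mouse gene whose symbol is Abc, a letter from a to g, a number and any further letters. The 49 genes, with 67 probes, were among 20144 named genes, and 15 were in subfamily A, 10 in B, 10 in C, 4 in D, 1 in E, 3 in F and 6 in G. The gene table holds 50 such symbols, and Abca16 had no matched probe.

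RNA was taken 2, 8 and 20 days after adipogenic induction, with 1 array of 1 sample for each day and no genetic change or further treatment named in the labels. The inducing agents are not named in the labels. Nothing could be tested for lack of replicates, so the text holds no p-values, and a difference between days may also be a difference between those samples. In bulk RNA, a change in the share of a cell type and a change in RNA per cell cannot be told apart.

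ABC proteins bind and hydrolyse ATP. Most span a membrane and use that energy to move a substrate across it, and the substrates range from cholesterol and phospholipids to bile salts, drugs, peptides and glutathione conjugates. Subfamilies A and G hold most of the lipid exporters, B and C hold most drug and conjugate exporters together with organelle transporters, and D acts in peroxisomes and lysosomes. Proteins of subfamilies E and F have no membrane-spanning part and act on ribosomes and translation.

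A level below is the log2 intensity of a gene's brightest probe relative to the 75th percentile of its own array, so that 0 is that percentile. A difference counts as 2-fold at 1 log2 unit, which is a size and not a test, and only genes well above background on both arrays count as measured. The error beside a difference is a technical SD, estimated from the repeated spots of probes that each array carries 10 times, without any spread between cultures. Its median over the ABC genes was 0.0759 for day 8 against day 2 and 0.0788 for day 20 against day 8. The day 8 array serves in both of those comparisons.

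On each array, 55.3 to 56.9% of the non-control spots were well above background, 0 were saturated, and all 3 arrays shared 1 slide and 1 scan. The adipocyte label was checked on 10 markers, and 10 of 10 were well above background on all days, with a summed level of 794, 1789 and 1229 multiples of the 75th percentile on days 2, 8 and 20. On day 8 against day 2, 5 of the 10 were 2-fold or more higher, 0 lower and 2 below 0. Over all measured genes, 13.8% were 2-fold or more higher there and 12.9% lower. Adipoq, which encodes adiponectin, had levels of 5.07, 8.90 and 8.18, and Cfd, adipsin, 2.06, 8.52 and 7.98, while the lipid carrier Fabp4 had 8.40, 8.35 and 7.64 and the transcription factor Cebpa 3.05, 2.64 and 2.76. Of 7 macrophage markers, 4 (Adgre1, Mrc1, Lyz2 and Cd163) were well above background on no day, and the list's sum was 9.02, 11.5 and 6.21. The other 3 were well above background on all days, with levels of 3.05, 3.30 and 2.17 for Itgam, -0.81, -0.82 and -1.36 for Csf1r, and -2.92, 0.04 and 0.37 for Cd14. Some lists of other cell types moved between days. Of 4 muscle markers, 3 were 2-fold or more higher on day 8 than on day 2 and 1 was well above background on no day, and the sum was 0.144, 1.32 and 1.55 on days 2, 8 and 20. Both measured keratinocyte markers of 4 were 2-fold or more lower on day 8, with 1.44, -0.27 and -0.58 for Krt10 and -1.34 and -4.86 on days 2 and 8 for Krt14, and the sum was 3.13, 0.886 and 0.704. Of 4 endothelial markers 2 were well above background on no day, Kdr had 2.19, 2.06 and 1.44, and the sum was 4.65, 4.27 and 2.76. Of 3 pancreatic beta cell markers 2 were well above background on no day, and the sum lay between 0.0852 and 0.0926. The part of these markers in the ABC results was not tested.

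Subfamily A held the most ABC genes that were higher on day 8 than on day 2, while the subfamily E and F genes were lower. Of the 29 ABC genes that could be compared, 9 (31.0%) were 2-fold or more higher on day 8, against 13.8% of the 12045 genes measured. Another 5 (17.2%) were 2-fold or more lower, against 12.9% of all measured genes, so that 14 were apart in either direction where 26.7% of all genes were. With normexp background correction the 14 became 8 and the 5 lower became 1, while the lower count over all genes was 1197 in place of 1555. With a filter at the lower quartile of signal, 8 were apart and 2 lower. The median difference of the ABC genes was 0.26 (range -1.56 to 3.32), and that of all measured genes was -0.06. In subfamily A, 5 of 6 measured genes were 2-fold or more higher and 0 lower, with a median of 1.69, although that median was 1.11 with normexp background correction and 0.59 without the filter on dim genes. The medians of subfamilies B, C, D, F and G were -0.17, 0.34, 0.26, -0.55 and -0.26. Those of B, D and G changed sign with a stricter filter on dim genes, to 0.70, -0.11 and 1.53, and those of B and C without a filter, to 0.40 and -0.03.

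Between days 8 and 20 most ABC genes stayed within 2-fold. Of 31 measured genes, 2 (6.45%) were 2-fold or more higher on day 20, against 3.58% of 12322 genes, and 0 were 2-fold or more lower, against 1.74% of all. In either direction, 5.32% of all genes were apart. The median was 0.05 (range -0.54 to 1.43), and 29 of the 31 differed by less than 2-fold. That count rests on the scaling: with spike-in scaling, which moved the median of all genes by 0.65, 10 ABC genes were 2-fold or more higher and 13 of 31 changed sign. That scaling adds 1 constant to the difference of each gene, and over all genes it gave 2001 higher in place of 441. With normexp correction the ABC count was 0, and 206 genes in all were higher.

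**Figure D1:**
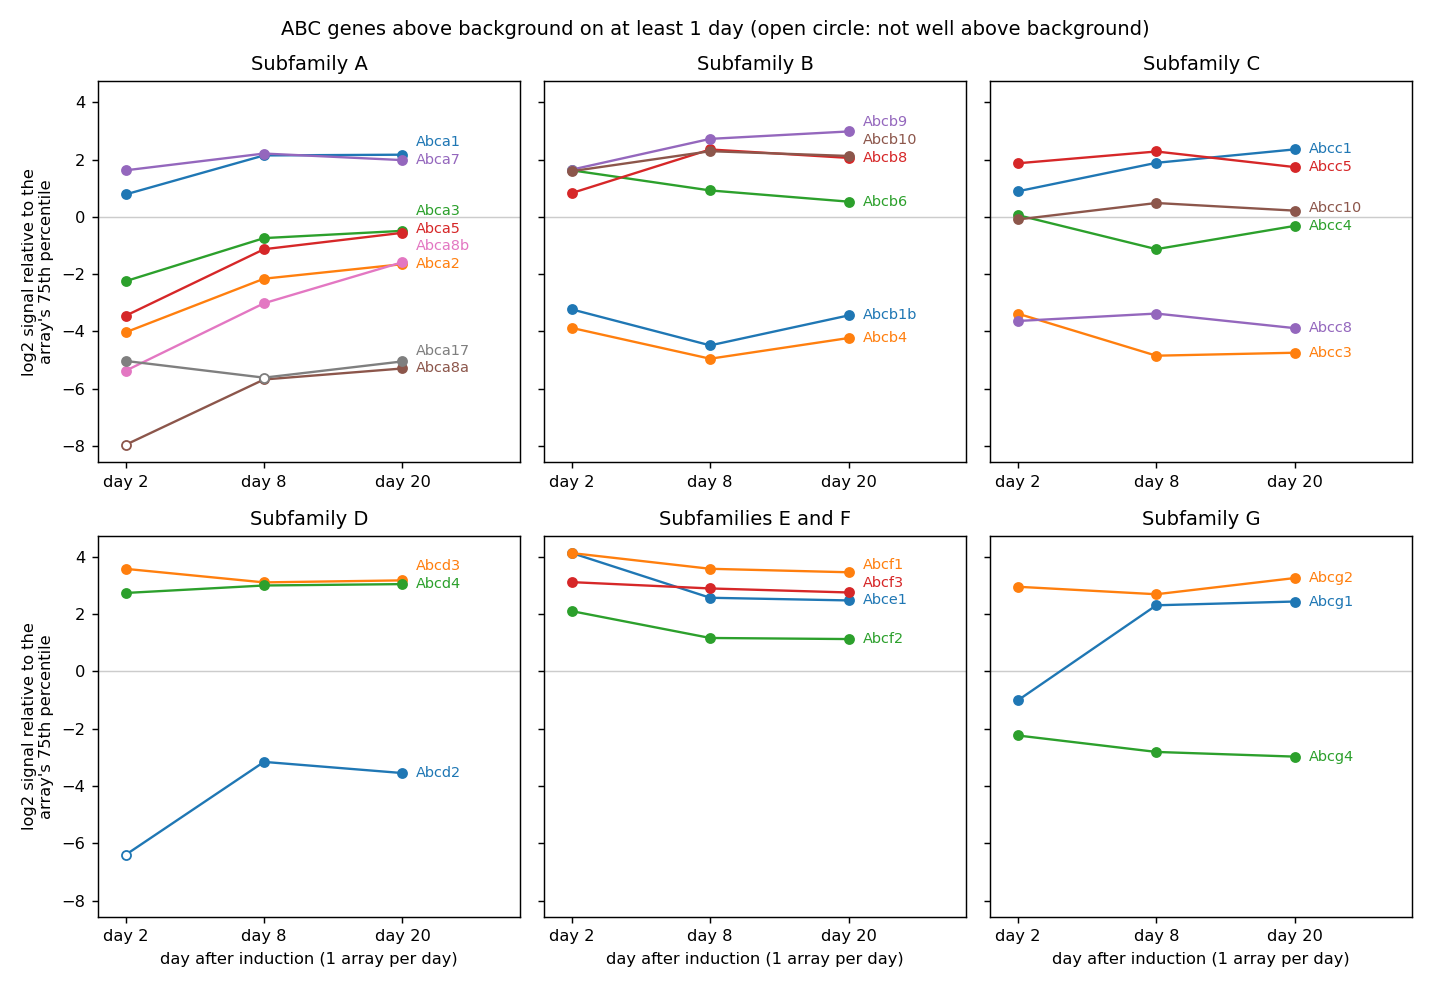
Levels (vertical axis, log2 signal relative to the array's 75th percentile) of 30 ABC genes well above background on at least 1 day, for days 2, 8 and 20 after induction, with 1 array per day and a panel for each subfamily or pair of subfamilies. Filled points are well above background and open points are not. Most subfamily A lines lie higher on day 8 than on day 2, the E and F lines lie lower, and Abcg1 has the steepest line of subfamily G, with levels of -1.01, 2.31 and 2.44.

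The lipid transporters of subfamilies A, B and G are given first. Abcg1, which passes cholesterol from cells to high-density lipoprotein, had levels of -1.01, 2.31 and 2.44 on days 2, 8 and 20. Day 8 was 9.98-fold higher than day 2, a log2 difference of 3.32 with a technical SD of 0.08, and day 20 differed from day 8 by 0.13. It was the largest measured difference of an ABC gene between days 8 and 2, and was 3.04 with normexp correction. Abca1, which hands cholesterol and phospholipid to lipid-poor apolipoprotein A-I and is a textbook target of the liver X receptors (LXR), had levels of 0.78, 2.15 and 2.17. Day 8 was 2.57-fold higher than day 2 (1.36, technical SD 0.07), and days 8 and 20 differed by less than 1 technical SD.

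Promoter letters are shown for Abca1 and, for contrast, for Abca8b and Abce1. Under the main processing, Abca8b and Abce1 lie at opposite ends of the day 20 against day 2 differences. Each window is 300 bases of the mouse GRCm38.p6 assembly from RefSeq, with 250 bases before the annotated start and 50 after it, printed 5′ to 3′ along the gene's minus strand. They lie at chr4:53159846-53160145 (Abca1), chr11:109995796-109996095 (Abca8b) and chr8:79711691-79711990 (Abce1).
Abca1: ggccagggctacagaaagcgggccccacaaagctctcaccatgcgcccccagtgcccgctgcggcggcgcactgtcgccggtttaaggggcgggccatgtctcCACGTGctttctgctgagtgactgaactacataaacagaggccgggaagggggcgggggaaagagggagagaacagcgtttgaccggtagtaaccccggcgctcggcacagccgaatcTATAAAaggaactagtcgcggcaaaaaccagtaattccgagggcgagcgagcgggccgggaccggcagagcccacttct
Abca8b: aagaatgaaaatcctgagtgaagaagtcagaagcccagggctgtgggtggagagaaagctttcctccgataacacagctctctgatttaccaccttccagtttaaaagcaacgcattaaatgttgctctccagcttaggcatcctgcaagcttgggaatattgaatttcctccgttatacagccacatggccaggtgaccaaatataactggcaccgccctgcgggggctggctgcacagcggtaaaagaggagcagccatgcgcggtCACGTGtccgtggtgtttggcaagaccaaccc
Abce1: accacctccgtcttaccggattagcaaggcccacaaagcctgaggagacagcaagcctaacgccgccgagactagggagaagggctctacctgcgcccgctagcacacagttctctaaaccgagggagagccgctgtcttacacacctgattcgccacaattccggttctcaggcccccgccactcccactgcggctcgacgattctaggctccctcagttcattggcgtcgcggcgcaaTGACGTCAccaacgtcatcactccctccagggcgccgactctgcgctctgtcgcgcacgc
Capitals mark an E-box (CACGTG) in Abca1 and Abca8b, a TATA box (TATAAA) in Abca1, and a cyclic AMP response element (TGACGTCA) in Abce1. Each was searched on both strands, together with a GC box (GGGCGG). Promoter windows were given for 37 of the 49 genes, 44 windows in all. The E-box occurred in 6 of these 44 and in 7.15% of 32851 mouse windows, the cyclic AMP element in 2 and 1.79%, the TATA box in 7 and 13.6%, and the GC box in 21 and 35.7%. These matches describe the letters only, and binding was not measured.

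Abca8b, which promotes cholesterol efflux, had levels of -5.38, -3.02 and -1.58 on days 2, 8 and 20. Day 8 was 5.13-fold higher than day 2 (2.36, technical SD 0.34) and day 20 was 2.70-fold higher than day 8 (1.43, technical SD 0.12), so each day was higher than the one before it. Abca8b is one of the 2 ABC genes 2-fold or more higher on day 20 than on day 8. The differences were 0.93 and 0.91 with normexp correction, both under 2-fold. Its neighbour and close relative Abca8a was dim on day 2, at -7.96 and not well above background, with levels of -5.68 and -5.30 on days 8 and 20, so that the bound for day 8 against day 2 was only 1.01-fold. Signal shared between such close copies was not tested.

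Abca5, a transporter of lysosomes and late endosomes, had levels of -3.46, -1.13 and -0.56, with day 8 at 5.01-fold the day 2 level (2.32, technical SD 0.13). Day 20 was 7.45-fold higher than day 2 (2.90), where the second probe described next gave 1.29. A second probe of Abca5 gave levels of -4.97, -4.03 and -3.68, and its day 8 against day 2 difference was 0.93, below 2-fold. Both probes were higher on day 8, and they differ in size by more than 1 log2 unit. Abca5, Abca6, Abca9, Abca8a and Abca8b are consecutive protein-coding genes on chromosome 11, and Abca6 and Abca9 were well above background on no day.

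Abca2, a lysosomal transporter best known in the nervous system, had levels of -4.03, -2.16 and -1.65 on days 2, 8 and 20. Day 8 was 3.66-fold higher than day 2 (1.87, technical SD 0.17), and its second probe gave 1.43. Over the other corrections and scalings the lowest value of Abca2 was 1.02. Abca3, which loads surfactant phospholipid into storage organelles of lung alveolar type 2 cells, had levels of -2.25, -0.74 and -0.49. Day 8 was 2.84-fold higher (1.51, technical SD 0.10). All 4 alveolar type 2 markers were well above background on no day. Abca7, a phospholipid transporter linked to phagocytosis, stayed within 2-fold throughout, with levels of 1.62, 2.21 and 1.98.

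Among the other lipid transporters, Abcb4, the phosphatidylcholine translocase of bile canaliculi, was 2.11-fold lower on day 8 than on day 2. Its levels were -3.88, -4.96 and -4.23, the difference was -1.08 (technical SD 0.30), and it was -0.39 with normexp correction. Abcg4, a cholesterol exporter of the brain, had levels of -2.24, -2.81 and -2.97, within 2-fold. The role group of lipid export was formed after the values were seen. In it, 6 of 9 measured genes were 2-fold or more higher on day 8 and 1 was lower, with a median difference of 1.51. Of those higher, Abca2, Abca3 and Abca5 are described above as acting in organelles, so the group is wider than export from cells. Among all measured genes, 13.8% were higher and 12.9% lower.

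The list of LXR and cholesterol efflux genes was set beside them. Of 18 measured genes, 7 were 2-fold or more higher on day 8 than on day 2 and 1 was lower, with a median of 0.55. The shares over all measured genes were 13.8% higher and 12.9% lower. The largest differences were in Apoc1, an apolipoprotein (6.20), Nceh1, a cholesteryl ester hydrolase (-2.21), and Mylip, an LXR-induced ligase that degrades the LDL receptor (1.82). Nr1h3, which encodes LXR alpha, was 1.11 higher on day 8 and 0.34 higher on day 20, each against day 2. On day 20 against day 2, 3 of the 18 were 2-fold or more higher, where 15.5% of all measured genes were. In the other direction 0 of the 18 were lower, where 17.0% of all were. Nceh1 (1.22) was the 1 gene of the 18 that was 2-fold or more higher on day 20 than on day 8. Over all measured genes 3.58% were higher there, and the list median was -0.16.

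**Figure D2:**
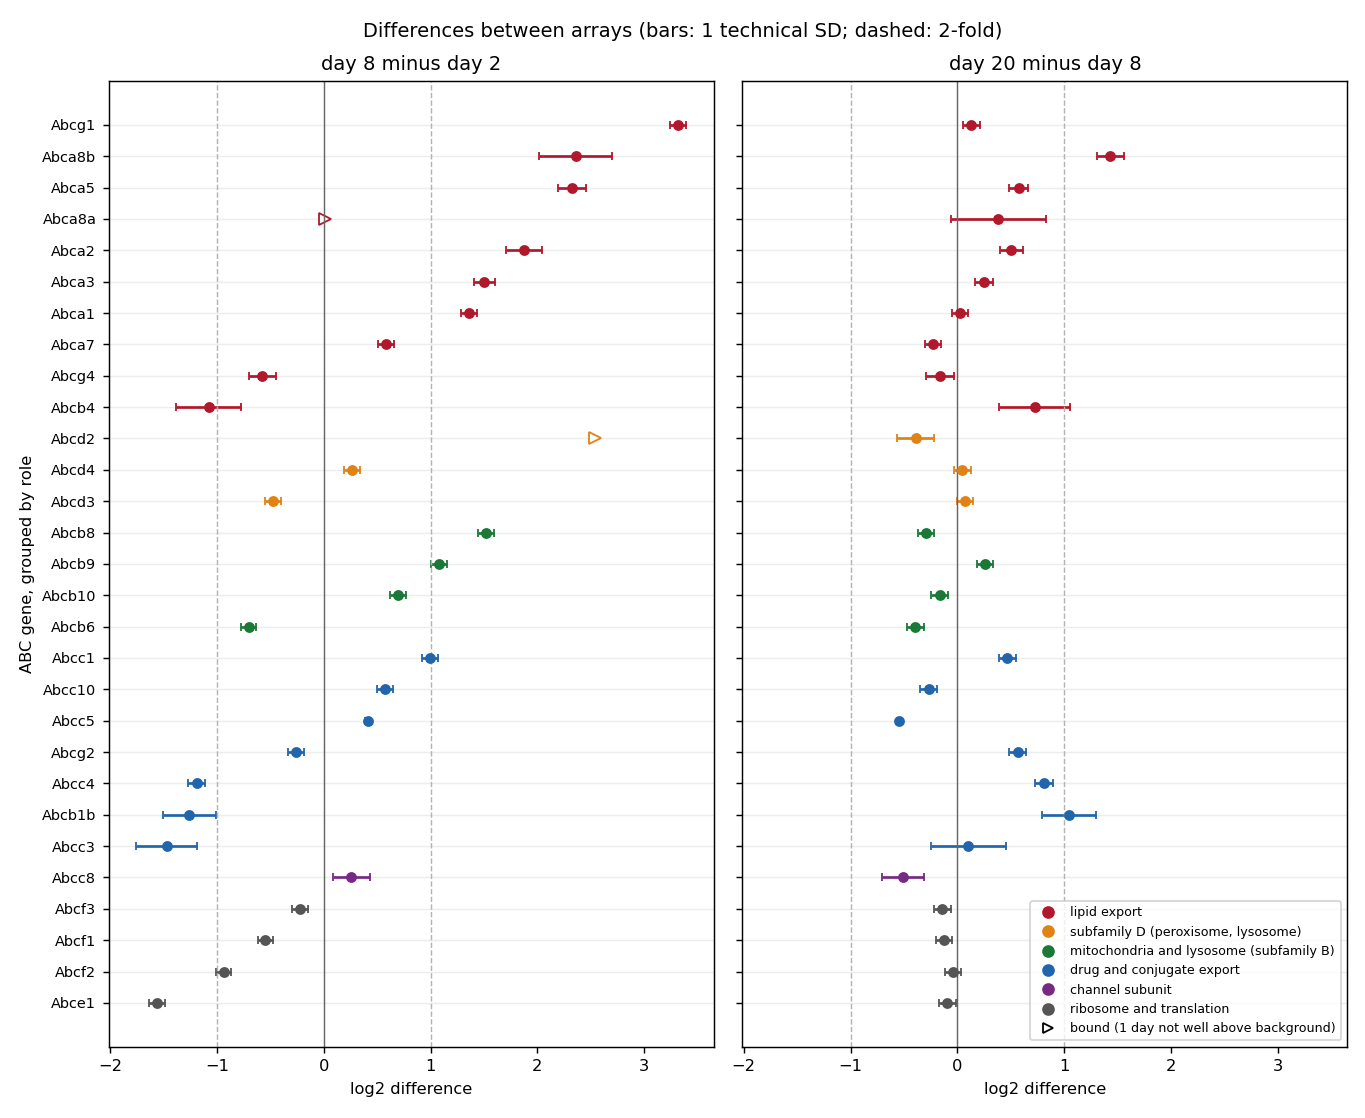
Log2 differences (horizontal axis) of day 8 minus day 2 and day 20 minus day 8 for 29 ABC genes, grouped by role, with bars of 1 technical SD and dashed lines at 2-fold. Open triangles are bounds for genes not well above background on day 2. In the left panel Abcg1 lies farthest right at 3.32 and Abce1 farthest left at -1.56. In the right panel 2 genes, Abca8b and Abcb1b, lie past 2-fold.

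Subfamily D carries fatty acyl-CoAs into peroxisomes, and 1 member serves lysosomes. Abcd2, which imports very long chain acyl-CoAs, was too dim on day 2 (-6.40) to stand well above background, and had levels of -3.16 and -3.55 on days 8 and 20. Day 8 was therefore at least 5.81-fold higher than day 2. It was the 1 ABC gene of 3 with such a bound that passed 2-fold, and of 1237 genes with a bound 25.1% were higher and 10.9% lower. Against day 2, day 20 was at least 4.43-fold higher, where 29.6% of 1288 genes with a bound were higher and 15.5% lower. In day 20 against day 8, Abca17 alone had a bound, under 2-fold, where 8.32% of 769 such genes were higher and 8.58% lower.

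Abcd3 and Abcd4 kept within 2-fold. Abcd3, which imports branched-chain and bile acid precursors, had levels of 3.58, 3.11 and 3.18, and Abcd4, which moves cobalamin out of lysosomes, had 2.74, 3.00 and 3.05. In the list of peroxisomal very long chain acyl-CoA genes, 2 of 11 measured genes were 2-fold or more higher on day 8 and 0 lower, with a median of 0.26. Over all measured genes the shares were 13.8% higher and 12.9% lower. By a bound, 1 more gene of the list was at least 2-fold higher on day 8. Acaa1a, a thiolase, had a difference of 1.52, and the receptor Pex5 one of -0.80.

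Of the transporters of mitochondria and lysosomes in subfamily B, 2 of 5 were 2-fold or more higher on day 8. Over all measured genes that share was 13.8%. Abcb8, an inner mitochondrial membrane transporter, had levels of 0.83, 2.35 and 2.06 on days 2, 8 and 20. Day 8 was 2.87-fold higher (1.52, technical SD 0.07), and its second probe gave 1.73. Abcb9, the lysosomal peptide transporter, had levels of 1.65, 2.72 and 2.98, with day 8 at 2.11-fold the day 2 level (1.08, technical SD 0.07). Abcb8 and Abcb9 were past 2-fold under all 6 other corrections and scalings, of which the submitters' series table repeats the main scaling.

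Abcb6, which carries porphyrins, had levels of 1.63, 0.92 and 0.53, lower on each later day, although day 20 against day 8 turned to 0.26 with spike-in scaling. Day 20 was 2.14-fold lower than day 2 (-1.10, technical SD 0.08), and the difference was -0.40 with spike-in scaling. Abcb10, an inner mitochondrial membrane transporter needed for heme synthesis, had levels of 1.59, 2.29 and 2.13. Of 20 heme and iron-sulfur cluster genes measured, 0 were 2-fold or more higher on day 8 and 1 was lower, Glrx5 (-1.28), an iron-sulfur cluster carrier. Among all measured genes, 13.8% were higher and 12.9% lower. Alad, the second enzyme of heme synthesis, had a difference of 0.90. On day 20 against day 2, 3 were lower, among them Glrx5 (-1.71) and Tmem14c (-1.16), where 17.0% of all measured genes were lower.

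Of the drug and conjugate exporters, 0 of 7 measured were 2-fold or more higher on day 8 and 3 were 2-fold or more lower. Among all measured genes, 13.8% were higher and 12.9% lower. Abcb1b, one of the mouse P-glycoproteins, had levels of -3.23, -4.49 and -3.44 on days 2, 8 and 20. Day 8 was 2.39-fold lower than day 2 (-1.26, technical SD 0.25) and day 20 was 2.07-fold higher than day 8 (1.05, technical SD 0.26), so that day 8 was the lowest. These differences were -0.45 and 0.16 with normexp correction. Its near copy Abcb1a was well above background on no day, and shared signal was not tested.

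Abcc3, which exports bile acid and glucuronide conjugates, had levels of -3.38, -4.85 and -4.75. Day 8 was 2.77-fold lower than day 2 (-1.47, technical SD 0.29), and -0.53 with normexp correction. Abcc4, which exports cyclic nucleotides and prostanoids, had levels of 0.06, -1.13 and -0.32, lowest on day 8. Day 8 was 2.28-fold lower than day 2 (-1.19, technical SD 0.08), and -0.95 with normexp correction, while day 20 was 1.76-fold higher than day 8 (0.81).

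Abcc1, which exports glutathione conjugates and leukotriene C4, had levels of 0.89, 1.89 and 2.36, higher on each later day. Day 8 was 1.99-fold higher than day 2, just inside 2-fold, and day 20 was 2.76-fold higher than day 2 (1.46). Abcc10, a drug exporter, differed by 0.58 on day 8 against day 2, and Abcg2, the breast cancer resistance protein, by -0.26.

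Abcc5, which exports cyclic nucleotides, had 4 measured probes. Its brightest probe, printed 10 times, had levels of 1.87 ± 0.054, 2.28 ± 0.062 and 1.74 ± 0.041 on days 2, 8 and 20 (mean ± SD over the 9, 10 and 10 spots used). Day 20 was -0.54 against day 8 on that probe and -0.52 on another of the same transcript. The remaining 2 probes, of another transcript of the gene, gave -1.05 and -1.38, so they were past 2-fold lower where the brightest probe was not. For day 20 against day 2 the brightest probe gave -0.13 and one of these gave -1.31.

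**Figure D3:**
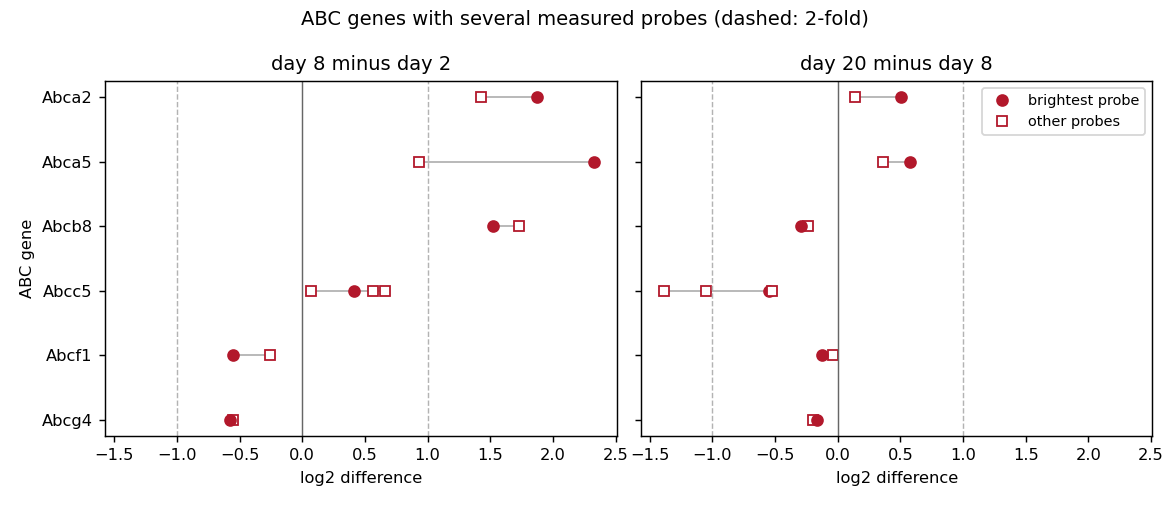
Log2 differences (horizontal axis) of 6 ABC genes with more than 1 measured probe, for day 8 minus day 2 and day 20 minus day 8. Filled circles are the brightest probe, open squares the others, and dashed lines mark 2-fold. On day 8 against day 2 and on day 20 against day 8 the probes of each of the 6 genes had the same sign.

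The list of glutathione conjugation and xenobiotic genes had 11 measured on day 8 against day 2, of which 2 were 2-fold or more higher and 1 lower. Over all measured genes, 13.8% were higher and 12.9% lower. The largest measured differences were in Gstm1 (4.98) and Gsta4 (3.55), both glutathione transferases, and in the quinone reductase Nqo1 (-1.50). By bounds, Ahr was at least 3.96-fold and Ggt5 at least 2.49-fold higher on day 8, and Slc7a11 at least 3.60-fold lower. The dim day 2 level of Ahr (-5.54) lay above the lowest level well above background there, so its bound is the plain difference. Ahr, a xenobiotic receptor (1.38), and Ggt5, a glutamyltransferase (1.32), were 2-fold or more higher on day 20 than on day 8. They were 2 of 13 measured, against 3.58% of all measured genes.

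Abcc8 encodes the sulfonylurea receptor of ATP-sensitive potassium channels. The levels of its brighter probe were -3.64, -3.38 and -3.89, within 2-fold, but its second probe was well above background on no day, at -7.91, -7.94 and -8.07. The related receptor gene, Abcc9, was well above background on no day. Of their channel partners, Kcnj8 was well above background on no day, and Kcnj11 had -5.36 and -5.13 on days 2 and 8 and was not well above background on day 20. Abcc6, which releases ATP that is split into the mineralization inhibitor pyrophosphate, was well above background on no day. Of 6 measured mineralization genes, 1 was 2-fold or more higher on day 8, Mgp, matrix Gla protein (2.39), and 1 lower, the phosphatase Alpl (-1.99). Among all measured genes, 13.8% were higher and 12.9% lower. On day 20 against day 8, 2 of 6 were 2-fold or more higher, Mgp (2.29) and Alpl (1.12), and 0 lower. The shares over all measured genes there were 3.58% higher and 1.74% lower.

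All 4 measured genes of ribosome and translation work were lower on day 8 than on day 2, with a median of -0.74. Abce1, which splits ribosomes for reuse after termination, had levels of 4.14, 2.57 and 2.48 on days 2, 8 and 20. Day 8 was 2.96-fold lower than day 2 (-1.56, technical SD 0.07), and it passed 2-fold under all 6 corrections and scalings tried. Of these, the submitters' series table repeats the main scaling. Abcf1, which binds initiation factor eIF2, Abcf2 and Abcf3, a member of the family of yeast GCN20, had differences of -0.55, -0.94 and -0.22 for day 8 against day 2. On day 20 against day 8 all 4 were between -0.14 and -0.04, and the sign of all 4 turned with cyclic loess scaling, which moved the median of all genes by 0.15, and with spike-in scaling. Of 12 genes of ribosome recycling and translation stress measured, 0 were past 2-fold on day 8 against day 2, where 26.7% of all measured genes were. The largest differences were in Etf1, the release factor (-0.98), Eif2ak2 (0.87) and Gcn1 (-0.78).

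Proteins of the family also carry other names. Tap1 and Tap2, which load peptides for MHC class I, are ABC proteins outside the symbol rule. Tap1 was too dim on day 2 (-5.96) to stand well above background, with levels of -2.0 and -1.03 on days 8 and 20, so day 8 was at least 12.9-fold higher than day 2. Tap2 had levels of -0.76, 2.81 and 3.49, with differences of 3.57 and 0.68. Of 11 other class I loading genes measured, 7 were 2-fold or more higher on day 8 and 0 lower, against 13.8% and 12.9% of all measured genes. The largest measured differences were in Psmb9, an immunoproteasome subunit (5.32), H2-K1 (2.38) and B2m (2.34). Psmb8 was too dim on day 2 to stand well above background, and was at least 40.1-fold higher on day 8. Of 12 measured, 3 were 2-fold or more higher on day 20 than on day 8, against 3.58% of all measured genes. These 3 were Psmb8 (2.13), Psmb9 (2.08) and H2-D1 (1.12). Cftr, a chloride channel, had levels of -4.63, -5.50 and -5.62.

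The list of sphingolipid and ceramide genes had 14 measured on day 8 against day 2, with 0 2-fold or more higher and 3 lower. Over all measured genes, 13.8% were higher and 12.9% lower. The 3 lower were Sphk1, a sphingosine kinase (-3.38), Ugcg, glucosylceramide synthase (-1.24), and Sptlc2, a subunit of the first enzyme of the pathway (-1.15). Outside the 14, 1 gene of the list was too dim on day 2 to be measured. Its bound for day 8 against day 2 was past 2-fold upward, at 2.41-fold.

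Over the whole course, 10 of 30 measured ABC genes (33.3%) were 2-fold or more higher on day 20 than on day 2, against 15.5% of 11889 genes, and 3 of 30 were lower, against 17.0%. Of all genes 32.5% were apart in either direction. Abca8b had the largest difference at 13.9-fold, followed by Abcg1 at 10.9-fold. That order rests on the processing. Over the 6 other corrections and scalings the log2 difference ran from 1.84 to 4.49 for Abca8b and from 3.14 to 4.15 for Abcg1. The day 2 level of Abca8b (-5.38) also lay near the lowest level well above background there (-5.70). The 3 lower were Abce1 (-1.66), Abcc3 (-1.36) and Abcb6 (-1.10), and with spike-in scaling, which moved the median of all genes by 0.70, 0 were lower and 10 of 30 changed sign. Over all genes the same shift gave 701 lower in place of 2017, and 3842 higher in place of 1841. Of the 29 ABC genes well above background on all days, 12 were highest on day 2, 6 on day 8 and 11 on day 20. The same count over all genes was not made, so these numbers mark no trait of the ABC genes. They also rest on the scaling, since 13 of 31 ABC genes changed sign on day 20 against day 8 with spike-in scaling. Of the remaining members, Abca17 had levels of -5.03 and -5.05 on days 2 and 20 and was not well above background on day 8.

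Detection set which members could be compared. In all, 32 of 49 ABC genes (65.3%) stood well above background on 1 or more days and 29 on all 3, against 66.8% of all 20144 genes on at least 1 day. Subfamilies D, E and F had 8 of 8 genes well above background on some day, A had 8 of 15, B 7 of 10, C 6 of 10 and G 3 of 6. The 17 well above background on no day were Abca4, Abca6, Abca9, Abca12, Abca13, Abca14, Abca15, Abcb1a, Abcb5, Abcb11, Abcc2, Abcc6, Abcc9, Abcc12, Abcg3, Abcg5 and Abcg8. Several of these are known from other cell types: Abca4 from retina, Abca12 from keratinocytes, Abcb11 and Abcc2 from hepatocytes, and Abcg5 with Abcg8 as the sterol exporter of liver and intestine. All 3 retina markers were also well above background on no day. So were 3 of 5 hepatocyte markers, Alb among them, but the hepatocyte bile acid carrier Slc10a1 had levels of 8.41, 8.30 and 7.53 on days 2, 8 and 20, and Serpina1a was well above background on days 8 and 20. The hepatocyte list's sum was 341, 316 and 185. A signal not well above background gives no level, and low expression there is not excluded.

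**Figure D4:**
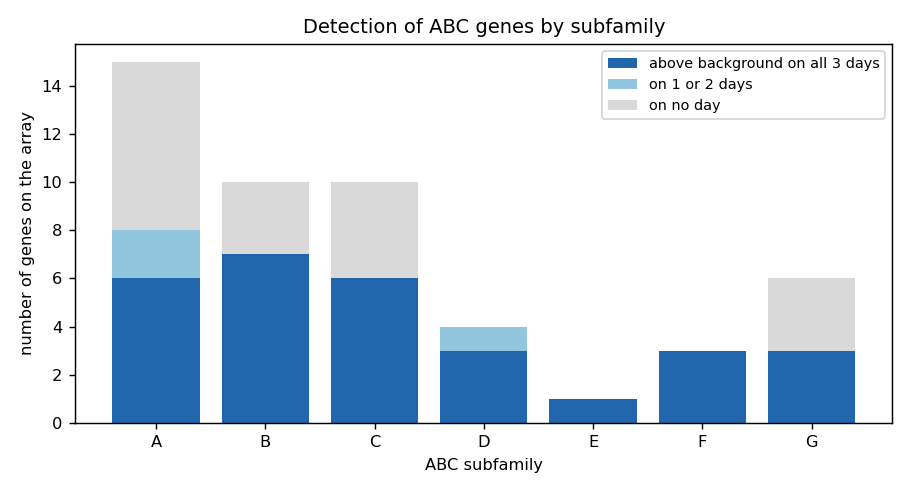
Number of ABC genes (vertical axis) in each subfamily A to G (horizontal axis) that were well above background on all 3 days, on 1 or 2 days, or on no day. Subfamily A has the most genes on no day, 7 of 15, while D, E and F have 0.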

How the data were processed

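RNA from 3 samples of 3T3-L1 adipocytes was measured on 1-colour Agilent arrays, with 1 array per day. The deposited intensity values are linear spot brightness, from which the scanner software, per the file headers, had subtracted background. The submitters' processing notes name Agilent Feature Extraction 10.7.1.1. Other deposited columns mark spots as control, outlier, saturated or well above background, per the file headers. In the submitters' series table, the deposited log2 values equal log2 intensity plus 1 constant per array (-9.37, -9.31 and -9.86 for days 2, 8 and 20) to within 0.01 for 99.7% of probes, and their column medians were -4.80, -4.69 and -4.89. Their scale and direction are thereby known. The constants match minus the log2 of each array's 75th percentile, so that table repeats the scaling used here.

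Levels were log2 of the processed signal, from which the array's own 75th percentile of non-control probes was subtracted (intensities of 662, 636 and 927 on days 2, 8 and 20). Control and outlier spots were left out and spots of a probe averaged. A gene took its brightest probe over the 3 arrays. Of 39429 non-control probes, 26581 matched 1 gene of the RefSeq GRCm38.p6 table by accession, and 0 columns belonged to no sample. Since the array was designed on an older mouse build, per the file headers, probe coordinates are not printed.

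A gene dim on 1 of 2 arrays has a bound: the bright level minus a stand-in for the dim level. That stand-in is the higher of the dim level and the lowest level among probes well above background there (-5.70, -5.76 and -5.91). Some probes not well above background had levels above that lowest level, so a bound is a convention and not an assured minimum. The technical SD came from 375, 377 and 369 probes printed 10 times, with at least 9 spots used, as a function of signal. With 1 array per day no test was made, and the number of arrays limits the precision. The script was checked on simulated data.

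All members entered the counts. Those at least 2-fold apart are given on every array, the rest by ranges and examples, and from each gene list the 3 largest differences, except that a few genes are not reported here by name or drawn. The members, lists and the naming rule were chosen with earlier results of these data known, and the role groups after the values were seen. Alternatives were normexp (limma 3.58.1 in R 4.3.3, offset 50, on median spot signals), quantile, cyclic loess, spike-in and detected-probe scaling, the series table, dim-probe filters and other folds. Python 3.11.15, numpy 2.4.6 and pandas 2.3.3 were used.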

Additional observations from a re-analysis of the deposited data

How the results depend on the processing

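No paired analysis was possible because each day has 1 array, and for the same reason no array could be left out. Of the recomputed counts of ABC genes, 74 stayed within 1.5 times the value reported and 25 moved. Of the recomputed differences of single genes and subfamily medians, 610 moved by less than 1 technical SD and 362 by more, and 0 values past 2-fold turned sign. Many of the 610 could not move. A filter leaves a gene's difference as it was, and so does averaging over probes for a gene with 1 measured probe. The series table repeats the main scaling, so the 610 are no measure of robustness. On day 8 against day 2, 14 ABC genes were 2-fold apart, against 8 with normexp, 8 with a lower-quartile filter and 3 at 4-fold. The 9 higher were 3 at 4-fold, and the 5 lower were 1 with normexp, 2 with the quartile filter and 0 at 4-fold. On day 20 against day 8, 2 were apart, all higher, against 0 with normexp, 0 with the quartile filter, 0 at 4-fold, 10 with spike-in scaling and 4 at 1.5-fold. Without a filter 6 were apart and 3 lower. On day 20 against day 2, 13 were apart and 10 higher, against 4 and 4 at 4-fold, and 3 lower, against 0 with spike-in scaling, 5 without a filter, 6 at 1.5-fold and 0 at 4-fold. By construction a stricter filter compares fewer genes and a higher fold counts fewer, and the cause of the other shifts was not tested. Among the 6 corrections and scalings, the series table repeats the main scaling, so passing it was fixed in advance. On day 8 against day 2, 8 of the 14 passed 2-fold under all 6 corrections and scalings: Abca1, Abca2, Abca3, Abca5, Abcb8, Abcb9, Abce1 and Abcg1. On day 20 against day 8, 0 of 2 did, and on day 20 against day 2, 9 of 13. Some passed only just: on day 8 against day 2 the lowest value was 1.02 for Abca2 and 1.02 for Abcb9. The technical SD reached 0.445 for Abca8a on day 20 against day 8.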
